A study of Mus musculus with 2 samples.

Results

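The genes *Ptf1a*, *Prdm13*, *Lhx1*, *Onecut1*, *Onecut2* and *Prox1*, which encode transcription factors of amacrine and horizontal cell development, were followed through the cells of the embryonic mouse eye. They were chosen by name, and all 6 were among the 31053 genes in the count tables. The data came from 2 single cell libraries of e13.5 eye cups, 1 per genotype, each from 3 pooled samples with cornea, lens and optic nerve removed. The control library was *Myrf* fl/fl, in which both alleles of *Myrf* are floxed and no Cre is named. The mutant library was *Rx>cre Myrf* fl/fl, in which the same floxed alleles are combined with a Cre transgene driven by *Rx*, a gene of the early eye field that gives rise to both neural retina and retinal pigment epithelium (RPE). Barcodes mark cells, and each captured transcript carries a unique molecular identifier (UMI), so that values are UMIs per gene and cell, read from the 3′ ends of transcripts.

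Amacrine and horizontal cells are the interneurons of the inner and outer plexiform layers, and both are born early from retinal progenitors. *Ptf1a*, a bHLH factor, acts in postmitotic precursors of both types and is required for their formation at the expense of ganglion cells. *Prdm13*, a zinc finger protein of the PRDM family, acts downstream of *Ptf1a* and is known for its role in amacrine subtypes. *Onecut1* and *Onecut2* encode cut homeodomain factors that favour horizontal, ganglion and cone fates. *Prox1* encodes a homeodomain factor and *Lhx1* a LIM homeodomain factor, both known for roles in horizontal cells, *Lhx1* in their placement.

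*Ptf1a* works as a trimer with an E protein and Rbpj or its homologue Rbpjl, and the 250 bases before the starts of *Ptf1a* and *Prdm13* are shown because both genes were detected in the same cells. Promoter sequences were those of RefSeq on GRCm38.p6, and 5 of the 6 genes had an entry. The *Ptf1a* window is chr2:19445413-19445662 on the plus strand, inside the antisense gene *Ptf1aos*, and the *Prdm13* window is chr4:21685964-21686213 on the minus strand. Capitals mark TGGGAA or its reverse complement, the core of the Rbpj site.
*Ptf1a*: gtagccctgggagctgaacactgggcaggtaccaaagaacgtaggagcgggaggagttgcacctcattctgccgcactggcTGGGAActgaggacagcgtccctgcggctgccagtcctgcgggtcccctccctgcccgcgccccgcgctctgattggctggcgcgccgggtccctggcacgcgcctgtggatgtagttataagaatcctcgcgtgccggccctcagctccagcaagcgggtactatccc
*Prdm13*: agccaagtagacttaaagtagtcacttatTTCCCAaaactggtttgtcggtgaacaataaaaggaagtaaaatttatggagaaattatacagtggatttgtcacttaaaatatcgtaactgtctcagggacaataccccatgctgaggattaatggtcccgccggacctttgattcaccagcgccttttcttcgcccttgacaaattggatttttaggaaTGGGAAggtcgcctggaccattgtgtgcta
The *Ptf1a* window held 1 match, beginning 169 bases before the start, and the *Prdm13* window held 2, beginning 221 and 30 bases before it. On either strand, 21.6% of 32851 promoter windows of this length held TGGGAA. The E-box, CANNTG, was in neither window, against 66.2% of all windows, and ATCAAT, a Onecut site, was in neither, against 6.72%. No motif overlapped another here, and a match of letters is no evidence of binding.

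The genes lie apart on GRCm38. *Ptf1a* spans chr2:19445663-19447501, *Prdm13* chr4:21677480-21685963, *Lhx1* chr11:84518284-84525535, *Onecut1* chr9:74861921-74891781 and *Prox1* chr1:190118035-190170714 in the GENCODE annotation, and all are protein coding. Exons of *Ptf1a* overlap those of *Ptf1aos* on the other strand, for which 0 control and 1 mutant UMIs were counted. Exons of *Prox1* overlap those of *Prox1os*, with 122 control and 143 mutant UMIs. Whether counting used strand is not stated in the sources used here, so that *Prox1* and *Prox1os* reads may not be fully separated.

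The libraries held 6039 control and 6754 mutant barcodes with 63483835 and 75228861 UMIs, and 5451 and 6309 cells were kept. *Myrf*, the targeted gene, had 248 UMIs in kept control cells and 113 in kept mutant cells, although 3′ reads need not fall in the deleted part. Clustering gave 29 clusters, 3 of them unnamed, which held 13.8% of control and 10.2% of mutant cells. The unnamed cells held at most 1.12% of the UMIs of any of the 6 genes in either library. The libraries shared 67 barcodes among kept cells, none of them in the class described next. With 1 library per genotype no test between genotypes was made, and every interval is a 95% interval for counting error only, which leaves out variation between cells, animals and libraries.

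One cluster, formed without using the 6 genes, held most of the *Ptf1a* and *Prdm13* RNA. It was named amacrine and horizontal precursor-like from other markers, 5 of 9 of which were raised over the remaining cells: *Tfap2a* and *Tfap2b*, AP-2 factors of amacrine cells, *Gad2* and *Slc32a1*, which encode a GABA-synthesizing enzyme and the vesicular inhibitory transmitter transporter, and *Barhl2*, a homeobox gene of amacrine subtypes. *Gad1* had no UMI in either library. The same cluster also raised 5 of 9 neurogenic precursor markers (*Hes6*, *Dll1*, *Btg2*, *Gadd45a* and *Rgs16*). Of the 5 raised amacrine and horizontal markers, 1 was highest in this cluster. Its 10 leading genes included *Ptf1a*, *Prdm13* and *Onecut2* and none of those markers. It held 52 control cells, 0.954% (95% CI 0.713 to 1.25%) of the kept cells, and 63 mutant cells, 0.999% (0.768 to 1.28%), with medians of 10878 and 10150 UMIs per cell. The level of a gene in a class is its share of the UMIs of that class, written as CPM (UMIs per 1000000 UMIs). Markers of other retinal classes were present in it. The 12 ganglion cell markers summed to 3030 CPM in control and 3169 CPM in mutant cells with 1 at 0 in each, the 9 neurogenic markers to 4314 and 2386 CPM, and the 10 retinal progenitor markers to 1384 and 1417 CPM with none at 0. RPE markers summed to 342 and 347 CPM and endothelium markers to 234 and 297 CPM, with *Pecam1*, *Cdh5* and *Tie1* at 0 in both libraries. Of 7 muscle markers 6 had no UMI in the control and 5 in the mutant cells, and of 7 lens markers 4 and 6. Red blood cell markers summed to 356 CPM in control and 891 CPM in mutant cells of the class. The part of these markers in the results was not tested.

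*Ptf1a* and *Prdm13* were largely confined to this class, *Lhx1* was near the limit of detection, and *Onecut1*, *Onecut2* and *Prox1* extended into other neuronal classes. In kept cells *Ptf1a* had 682 UMIs in the control library and 657 in the mutant, of which 76.1% and 80.8% lay in the class. *Prdm13* had 245 and 297 UMIs, with 90.6% and 84.8% in the class. By contrast, the class held 18.7% and 21.7% of 3168 and 3878 *Onecut2* UMIs, 12.8% and 13.7% of 195 and 183 *Onecut1* UMIs, and 11.2% and 14.8% of 267 and 297 *Prox1* UMIs. *Lhx1* had 3 UMIs in the control library and 14 in the mutant. All 6 genes nevertheless had their highest level, as CPM of the class total, in the amacrine and horizontal precursor-like class in both libraries, although with other settings this held for as few as 4 of them. The order was not resolved for *Onecut1*, whose interval overlapped that of photoreceptor precursor-like cells. Nor was it for *Lhx1*, with 2 control and 7 mutant UMIs in the class. For *Onecut1* it also depended on pooling clusters into classes. In the control library a cluster of the neurogenic class (cluster 14) was at 46.3 CPM, against 44.2 CPM in the amacrine and horizontal precursor-like class. Levels were compared between classes for 1 gene at a time, since the UMIs of different genes are not on a common scale.

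**Figure D1:**
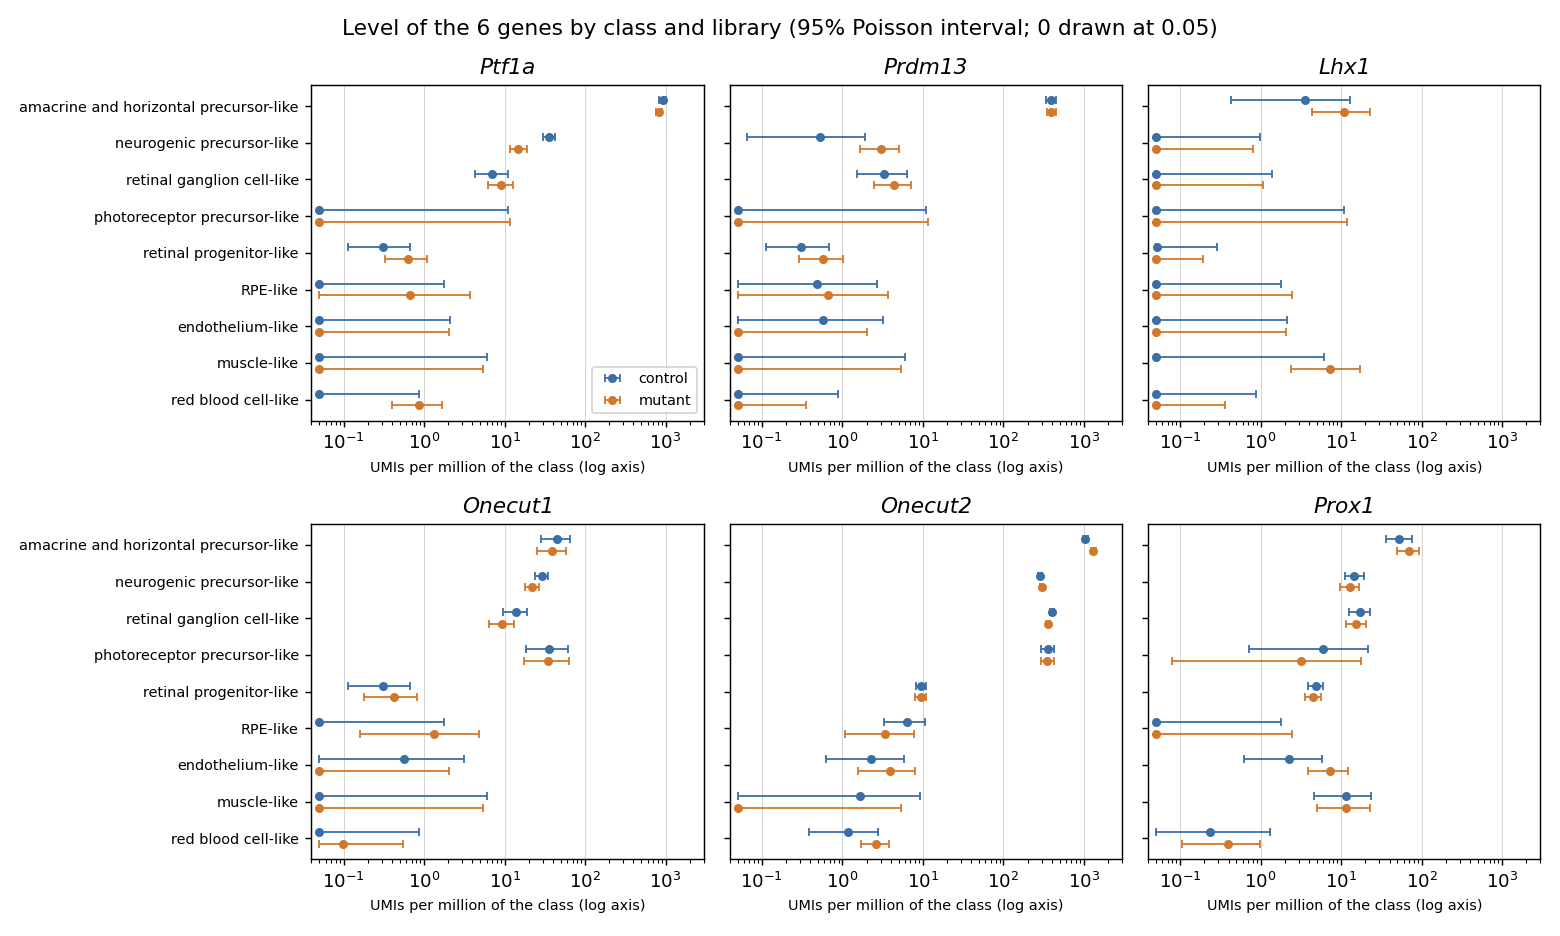
CPM of each class (log axis) for the 6 genes in 9 classes, with control in blue and mutant in orange; bars are 95% Poisson intervals and a value of 0 is drawn at 0.05. All 6 genes had their highest value in the amacrine and horizontal precursor-like class, although this was not resolved by the intervals for *Onecut1* and rested on few UMIs for *Lhx1*. *Onecut2* also lay between 285 and 404 CPM in the neurogenic, ganglion cell and photoreceptor precursor-like classes.

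*Ptf1a* in the class was 918 CPM (841 to 1001) in the control library, from 519 UMIs, and 830 CPM (761 to 904) in the mutant, from 531 UMIs. Among the control cells the count ran from 0 to 21 with a median of 10, and among the mutant cells from 0 to 37 with a median of 7. At least 1 UMI was present in 50 of 52 control cells (96.2%) and 60 of 63 mutant cells (95.2%). After every cell was thinned to 3000 UMIs these shares were 76.9% (63.2 to 87.5%) and 85.7% (74.6 to 93.3%). The next classes were the neurogenic precursor-like cells at 35.8 CPM in the control library and 14.9 in the mutant, and the ganglion cell-like cells at 7.05 and 9.06 CPM. These neighbours were separated by their intervals in the control library and overlapped in the mutant. Retinal progenitor-like cells were near 0, with *Ptf1a* in 6 of 1608 control cells (0.373%) and 7 of 1692 mutant cells (0.414%). In red blood cell-like cells, where no *Ptf1a* RNA is expected and which had medians of 22426.5 and 22706 UMIs, 0 of 210 control cells had a UMI, which allows a share of up to 1.43%. Only 1 of 489 mutant cells did (0.204%), with all 9 UMIs of that class. No UMI was found in photoreceptor precursor-like cells, which allows up to 8.91 CPM in the control library and 9.52 CPM in the mutant.

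*Prdm13* was the most restricted of the well-detected genes. Its level in the class was 393 CPM (343 to 448) in the control library and 394 CPM (347 to 446) in the mutant. Counts per cell reached 13 and 10 with a median of 4 in both libraries, and 44 of 52 control cells (84.6%) and 56 of 63 mutant cells (88.9%) had a UMI. Thinned shares were 61.5% and 65.1%. The second class was the ganglion cell-like class, at 3.34 and 4.38 CPM, with intervals that overlapped those of the next class in both libraries. No red blood cell-like cell had a UMI. Neurogenic precursor-like cells held 2 control and 14 mutant UMIs of *Prdm13*, and the mutant UMIs came from 6 of 359 cells.

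*Onecut2* was high in the class and present throughout the early neurons. It reached 1049 CPM (967 to 1137) in control and 1315 CPM (1228 to 1407) in mutant cells of the class, with a median of 11.5 and 13 UMIs per cell and a UMI in 49 and 60 cells. Ganglion cell-like cells followed at 404 and 360 CPM, and photoreceptor precursor-like cells at 357 and 352 CPM, which overlapped in their intervals in both libraries. Neurogenic precursor-like cells stood at 285 and 298 CPM. Within that class the *Atoh7*- and *Isl1*-bearing cluster (cluster 13) was at 410 and 416 CPM, and the *Neurog2*-led cluster (cluster 14) at 155 and 144 CPM. Retinal progenitor-like cells were far lower, at 9.44 and 9.37 CPM, with a UMI in 9.20% and 8.10% of cells against 2.38% and 3.07% of red blood cell-like cells. After thinning, the progenitor shares were 2.69% and 2.36% and the red blood cell shares 0% (0 of 178) and 1.69%, and the intervals of the progenitor shares (1.92 to 3.66% and 1.66 to 3.26%) overlapped those of the red blood cell shares (0 to 2.05% and 0.682 to 3.45%). The intervals of the summed levels did not overlap. They were 8.12 to 10.9 and 8.05 to 10.9 CPM in progenitors, against 0.384 to 2.76 and 1.73 to 3.82 CPM in red blood cell-like cells.

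*Onecut1* was sparse, with no more than 2 UMIs in any cell of the class. Its class level was 44.2 CPM (28.6 to 65.3) in the control library and 39.1 CPM (25.3 to 57.7) in the mutant, from 25 UMIs each, in 22 of 52 and 19 of 63 cells. Unlike the other genes it was nearly as high in photoreceptor precursor-like cells, at 35.7 and 34.9 CPM, and its intervals there overlapped those of the class above and of the neurogenic precursor-like cells below it, at 29.1 and 22.1 CPM. Within the neurogenic class its order was opposite to that of *Onecut2*: 46.3 and 31.8 CPM in the *Neurog2*-led cluster against 12.6 and 14.7 CPM in cluster 13. The control value of the *Neurog2*-led cluster was thus above the 44.2 CPM of the amacrine and horizontal precursor-like class. Ganglion cell-like cells held 13.7 and 9.35 CPM, below the neurogenic class with no overlap of intervals. No control and 1 mutant red blood cell-like cell had a UMI.

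*Prox1* was detected in 17 of 52 control cells (32.7%) and 30 of 63 mutant cells (47.6%) of the class, with at most 3 UMIs per cell. The levels were 53.1 CPM (35.8 to 75.8) and 68.8 CPM (49.99 to 92.4), and the thinned shares were 11.5% and 17.5%. Ganglion cell-like cells at 17.1 and 15.5 CPM, neurogenic precursor-like cells at 14.7 and 12.9 CPM and muscle-like cells at 11.6 and 11.7 CPM followed, with overlapping intervals between neighbours. Retinal progenitor-like cells held 4.82 and 4.50 CPM, and 4.91% of them in both libraries had a UMI, against 0.476% and 0.818% of red blood cell-like cells. Thinned, these shares were 1.52% (0.953 to 2.29%) and 1.12% (0.651 to 1.78%) in progenitors and 0% (0 to 2.05%) and 0.242% (0.00612 to 1.34%) in red blood cell-like cells, and their intervals overlapped. The intervals of the summed levels did not. Progenitors stood at 4.82 (3.89 to 5.91) and 4.50 CPM (3.60 to 5.56), and red blood cell-like cells at 0.236 (0.00599 to 1.32) and 0.389 CPM (0.106 to 0.997).

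*Lhx1* gave 2 UMIs in 2 control cells and 7 UMIs in 6 mutant cells of the class, or 3.54 CPM (0.429 to 12.8) and 10.9 CPM (4.40 to 22.6). These intervals overlap, and no ratio was read from so few UMIs. Outside the retina the mutant muscle-like cells held 5 *Lhx1* UMIs in 3 of 29 cells, 3 of them in 1 cell. *Lhx1* was thus not detectable in most cells at this depth, which does not show that it was absent.

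The members were next read cell by cell. A median of 4 of the 6 genes was detected per cell of the class in both libraries, and 1 control and 2 mutant cells had all 6. Only 1 mutant cell and no control cell of the class had none, while 204 of 210 control and 471 of 489 mutant red blood cell-like cells had none. Of the 50 control *Ptf1a* cells of the class, 43 had *Prdm13* (86.0%, 73.3 to 94.2%), 47 had *Onecut2*, 21 had *Onecut1*, 17 had *Prox1* and 2 had *Lhx1*. Of the 60 mutant *Ptf1a* cells, 54 had *Prdm13* (90.0%, 79.5 to 96.2%), 58 had *Onecut2*, 18 had *Onecut1*, 28 had *Prox1* and 6 had *Lhx1*. Because nearly every cell of the class had *Ptf1a*, these shares stood close to those of all cells of the class, which were 84.6% and 88.9% for *Prdm13*. Thinned to 3000 UMIs, *Prdm13* was seen in 65.0% of control and 70.4% of mutant *Ptf1a* cells, so that detection depends on depth.

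**Figure D2:**
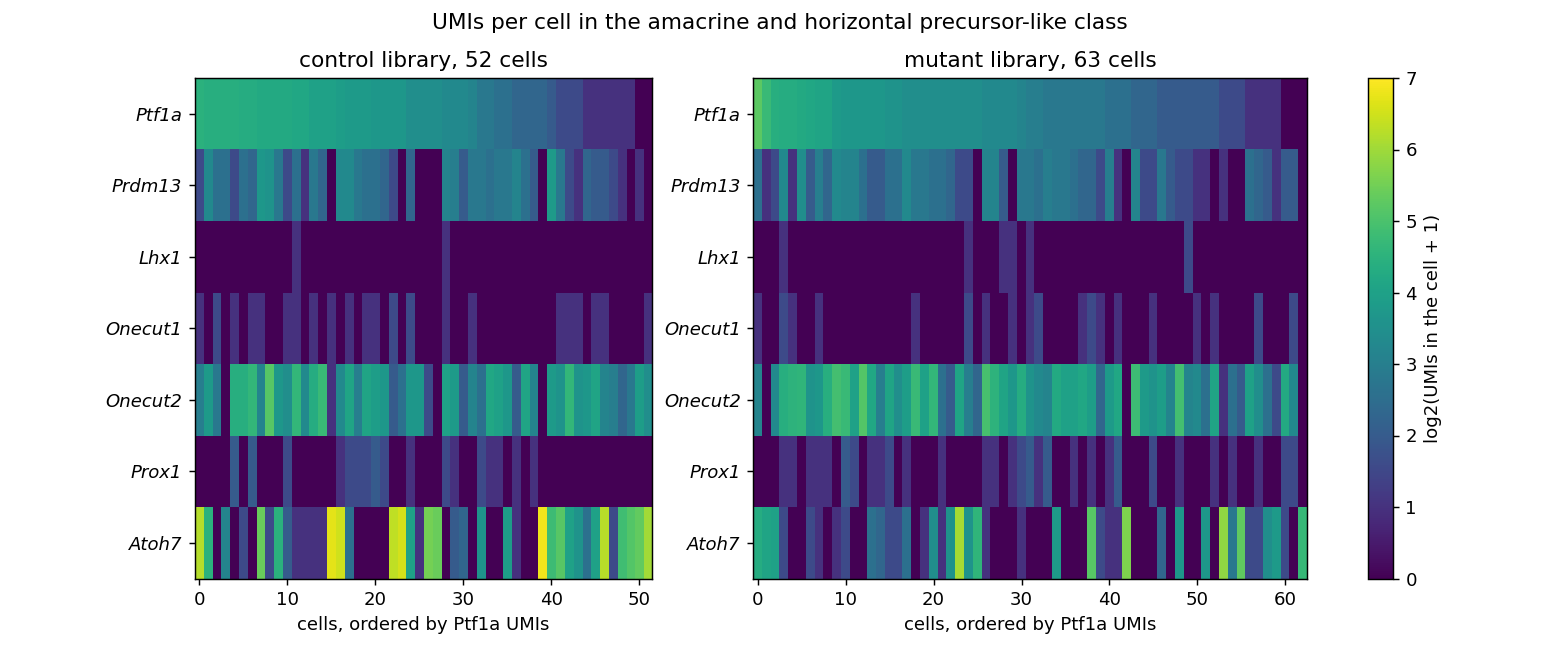
Each column is 1 cell of the amacrine and horizontal precursor-like class, ordered by *Ptf1a* UMIs within the control (52 cells) and mutant (63 cells) library, and colour gives log2(UMIs + 1) of each gene. *Ptf1a*, *Prdm13* and *Onecut2* fill most columns, *Onecut1*, *Prox1* and *Lhx1* are scattered, and cells with many *Atoh7* UMIs are mixed with cells that have none.

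The horizontal-associated genes were read against the 96.2% and 95.2% of cells of the class that had *Ptf1a*, which leaves few cells where they could be seen without it. Every *Lhx1* cell of the neuronal classes, 2 in the control library and 6 in the mutant, also had *Ptf1a*, and all had *Onecut2*. Since no neuronal cell had *Lhx1* without *Ptf1a*, the planned ranking of genes between *Ptf1a* cells and *Lhx1* cells could not be made. Within the class, all 17 control *Prox1* cells had *Ptf1a*, *Prdm13* and *Onecut2*, and of 30 mutant *Prox1* cells 28 had *Ptf1a*, 27 *Prdm13* and 30 *Onecut2*. Over all kept cells, by contrast, 19 of 217 control and 33 of 252 mutant *Prox1* cells had *Ptf1a* (8.76% and 13.1%). *Onecut1* was seen in 8 of 17 control and 13 of 30 mutant *Prox1* cells of the class, against 42.3% and 30.2% of all cells of the class, and these shares lie within their counting error (23.0 to 72.2% and 25.5 to 62.6%).

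Genes of the surrounding pathways were read in the same *Ptf1a* cells. Of the Ptf1a partners, *Rbpj* stood at 108 CPM in control and 109 CPM in mutant cells of the class, while *Rbpjl* had 1 control UMI and no mutant UMI. The E protein genes *Tcf3*, *Tcf4* and *Tcf12* stood at 92.0, 186 and 83.2 CPM in control and 89.1, 159 and 122 CPM in mutant cells. *Tfap2b* was found in 25 of 50 control and 38 of 60 mutant *Ptf1a* cells, *Tfap2a* in 11 and 15, and *Gad2* in 14 and 8. *Foxn4*, which acts upstream of *Ptf1a* in progenitors, was found in 0 and 3 *Ptf1a* cells. *Atoh7*, the bHLH gene of ganglion cell competence, was found in 37 of 50 and 38 of 60. Genes of other fates varied. *Isl1* was in 5 and 6 *Ptf1a* cells, *Pou4f2*, a ganglion cell factor, in 3 and 3, and the photoreceptor gene *Crx* in none. Of the same ganglion cell list, *Gap43*, which encodes a growth cone protein, was in 27 of 52 control and 32 of 63 mutant cells of the class, and *Elavl4*, an RNA-binding protein gene of neurons, in 18 and 21. Of the photoreceptor list, *Otx2* was in 5 control and 10 mutant cells of the class, *Thrb* in 6 and 1 and *Prdm1* in 1 and 1. *Rxrg* and *Gngt2* were in none. The cell cycle genes *Mki67* and *Top2a* were found in 1 and 3 control and in 5 and 5 mutant cells. Of the other proliferation genes listed, *Pcna* was in 16 control and 19 mutant cells of the class and *Mcm5* in 7 and 7. *Cdk1* was in 2 and 7 and *Ccnb1* in 2 and 2. *Cryaa*, *Pecam1* and *Myog*, of lens, endothelium and muscle, were in no *Ptf1a* cell, whereas the red blood cell gene *Hbb-y* was in 47 and 58 *Ptf1a* cells.

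**Figure D3:**
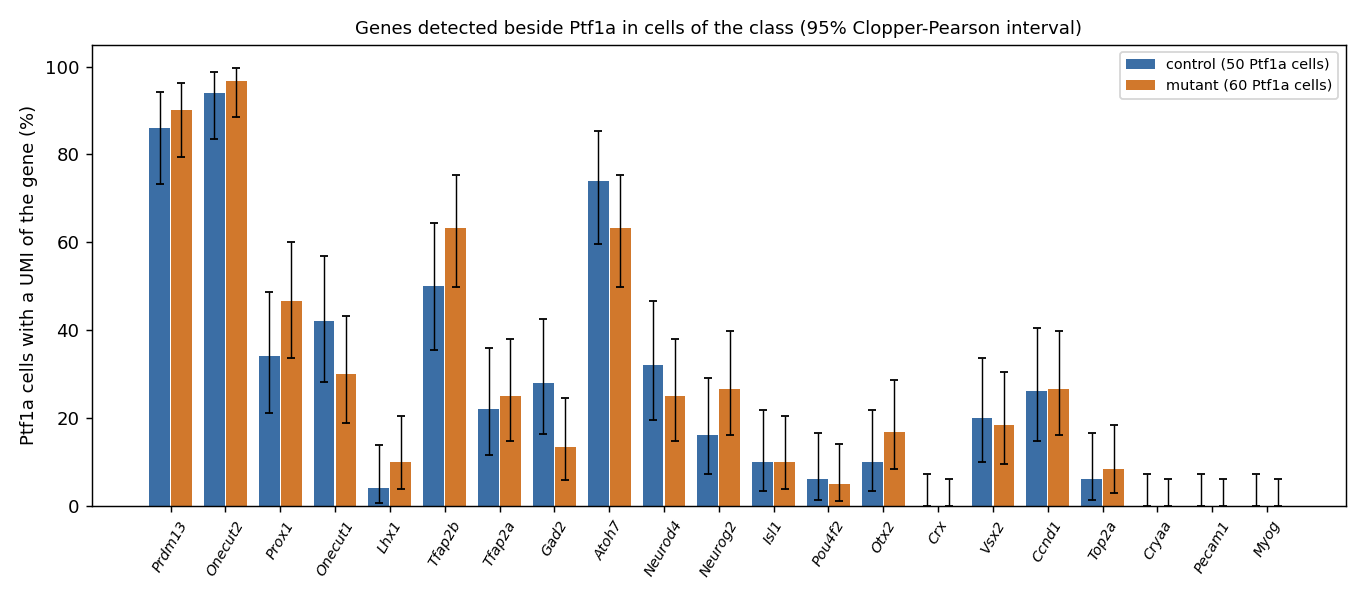
Percentage of *Ptf1a* cells of the class with at least 1 UMI of each gene, in the control (50 cells) and mutant (60 cells) library, with 95% Clopper-Pearson intervals. *Prdm13* and *Onecut2* stand above the other genes in both libraries, and *Crx*, *Cryaa*, *Pecam1* and *Myog* at 0.

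As summed CPM, *Ptf1a* cells with and without a *Prdm13* UMI differed in *Atoh7*, *Onecut2*, *Cdkn1c* and *Rorb* in the same direction in both libraries. The counting intervals of these genes did not overlap. They come from a reading of the members, partner genes and listed genes only. The share of all genes that separated in this way was not computed. Cells of the class with *Ptf1a* and no *Prdm13* UMI were few, 7 in the control library and 6 in the mutant, and their depth (medians of 11650 and 9756 UMIs) was close to that of cells with both (10854 and 10313.5). *Atoh7* stood at 5284 CPM in the 7 control cells without *Prdm13* and at 1329 CPM in the 43 with it, and at 2028 against 618 CPM in the mutant library. *Onecut2* went the other way, at 318 against 1183 CPM in the control library and 699 against 1400 CPM in the mutant. So did *Cdkn1c*, an inhibitor of the cell cycle, at 135 against 1379 and 245 against 825 CPM, and *Rorb*, a nuclear receptor gene upstream of *Ptf1a*, at 917 against 1676 and 822 against 1566 CPM. *Hes1*, a Notch target, stood at 294 against 91.5 and 175 against 61.5 CPM, with intervals that overlapped in the mutant library. *Btg2*, an antiproliferative gene, was at 367 against 69.7 and 227 against 110 CPM, and *Dll1*, a Notch ligand, at 122 against 47.9 and 104.9 against 27.1 CPM. The intervals of *Btg2* overlapped in the mutant library and those of *Dll1* in both. *Tfap2b* was at 24.5 against 246 CPM in the control but at 227 against 282 CPM in the mutant library. *Ptf1a* itself was at 758 against 996 and 542 against 904 CPM. The cells without *Prdm13* were uneven, a spread that the intervals leave out. *Atoh7* counts were 103, 93, 1, 45, 41, 115 and 34 in the control cells. In the mutant cells they were 23, 0, 49, 0, 6 and 38. *Onecut2* counts of the same cells were 1, 5, 12, 2, 0, 0 and 6, and 4, 12, 0, 16, 5 and 3. The mutant cells without *Atoh7* thus had the most *Onecut2*. All of these cells come from 1 library per genotype, so that the values describe these cells, which are no replicates.

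**Figure D4:**
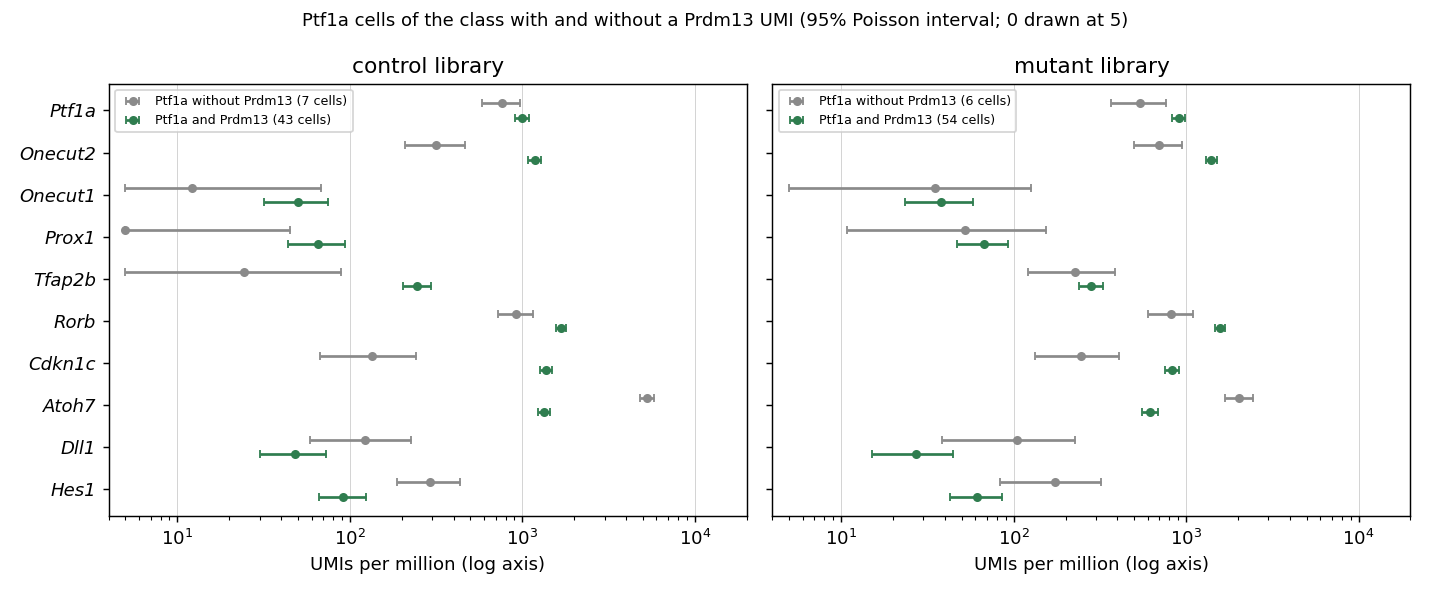
CPM (log axis) in *Ptf1a* cells of the class without a *Prdm13* UMI (grey, 7 control and 6 mutant cells) and with one (green, 43 and 54 cells); bars are 95% Poisson intervals and 0 is drawn at 5. *Atoh7* and *Hes1* are higher without *Prdm13*, and *Onecut2*, *Rorb* and *Cdkn1c* are higher with it, in both libraries.

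Some *Ptf1a* cells lay outside the class. With a minimum of 2 *Ptf1a* UMIs, 16 control and 11 mutant cells of the neurogenic and ganglion cell-like classes were *Ptf1a* cells, 8 and 5 of them in cluster 13. The 8 control cells held 27, 23, 18, 17, 15, 12, 5 and 3 *Ptf1a* UMIs and the 5 mutant cells 23, 9, 5, 4 and 4. Their *Ptf1a* level, 1122 CPM (930 to 1341) and 963 CPM (702 to 1288), had intervals that overlapped those of the class cells with at least 2 UMIs, which were at 1051 CPM (962 to 1146) and 928 CPM (851 to 1011). None of these 13 cells had a UMI of *Prdm13*, *Lhx1*, *Onecut1* or *Prox1*, which allows up to 28.0 CPM in the control and 64.2 CPM in the mutant cells. That limit lies well below the class level of *Prdm13*. In the control cells it also lies below *Prox1* in class cells with at least 2 *Ptf1a* UMIs (61.5 CPM, 41.5 to 87.8). It lies just below the interval of *Onecut1* there (45.1 CPM, 28.2 to 68.2). The exact Poisson limit for 0 *Onecut1* UMIs, 34.5 CPM, lies inside that interval. As a share of cells, 0 of 8 allows up to 36.9%. In those class cells 38.6% (24.4 to 54.5%) had *Prox1* and 43.2% (28.3 to 59.0%) had *Onecut1*. For *Lhx1*, and for *Onecut1* and *Prox1* in the mutant cells, the limit is close to or above the class level. Those zeros, and that of *Onecut1* in the control cells, do not show a difference from the class. *Onecut2* was at 224 and 193 CPM. *Atoh7* was at 9384 and 10460 CPM. *Isl1* stood at 74.8 and 21.4 CPM, against 812 and 946 CPM in the cells of cluster 13 without *Ptf1a*. Among all *Ptf1a* cells outside the class, *Prdm13* was found in 2 of 16 control cells (12.5%, 1.55 to 38.3%) and 3 of 11 mutant cells (27.3%, 6.02 to 61.0%). Doublets marked by their mixed profiles, 1.23% of the 5519 control and 1.02% of the 6374 mutant cells that passed the gene and mitochondrial limits, had been left out, and unmarked ones can remain.

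The mutant and control libraries were then compared within the class. Of the 6 genes, 5 had at least 50 UMIs over both libraries, and none was past 1.5-fold in either direction, against 7.6% of the 3472 genes that passed this minimum (3.49% higher and 4.12% lower in the mutant). The log2 ratio of mutant over control was −0.15 (−0.32 to 0.03) for *Ptf1a*, 0.00 (−0.26 to 0.27) for *Prdm13* and −0.18 (−1.04 to 0.68) for *Onecut1*. It was 0.36 (−0.33 to 1.09) for *Prox1* and 0.32 (0.17 to 0.48) for *Onecut2*, beside a median of −0.02 over all genes. Of these intervals that of *Onecut2* left out 0, and its ratio stayed below 1.5-fold. Without the highest cell of each library the ratio of *Ptf1a* was −0.20 (−0.38 to −0.01), whose interval also left out 0, and that of *Onecut2* 0.35 (0.19 to 0.51). For *Onecut1* and *Prox1* the intervals reach beyond 1.5-fold, so that a change of that size was not detectable at this depth.

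Larger ratios than those of the 6 were found among the listed genes. *Atoh7* was at 2026 CPM in control and 758 CPM in mutant cells of the class (log2 ratio −1.42, −1.57 to −1.26), and the count per cell had a median of 5 in the control, with 39 of 52 cells positive, and of 2 in the mutant, with 40 of 63 positive. *Calb2*, which encodes the calcium-binding protein calretinin, was at 796 and 294 CPM (−1.43, −1.69 to −1.19). It was present in 19 control and 26 mutant cells, but with a median of 18 UMIs per positive control cell against 4 per positive mutant cell. Leaving out the highest cell of each library gave −1.48 for *Atoh7* and −1.60 for *Calb2*. By list, *Atoh7* was the neurogenic gene past 1.5-fold on the lower side. The only later interneuron gene to pass, *Calb2*, was lower, and of 4 progenitor genes *Sox2* and *Hes1* were lower. The other progenitor genes stayed within 1.5-fold, *Lhx2* at −0.28 (−0.83 to 0.27) and *Fgf15* higher in the mutant, at 0.54 (0.03 to 1.07). Without the highest cell of each library *Fgf15* was at 0.34 (−0.25 to 0.96). None of the 4 amacrine and horizontal transcription factors that passed of 18 listed, of the 4 *Ptf1a* partners of 5 listed, of the 2 ganglion cell genes or of the 3 cell cycle exit genes was past 1.5-fold, with medians of 0.09, −0.02, 0.00 and −0.25. The exit gene *Cdkn1c* fell just short, at 1148 and 768 CPM (−0.58, −0.75 to −0.41). Without the highest cell of each library its ratio was −0.36 (−0.55 to −0.18). No photoreceptor or proliferation gene reached the minimum.

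**Figure D5:**
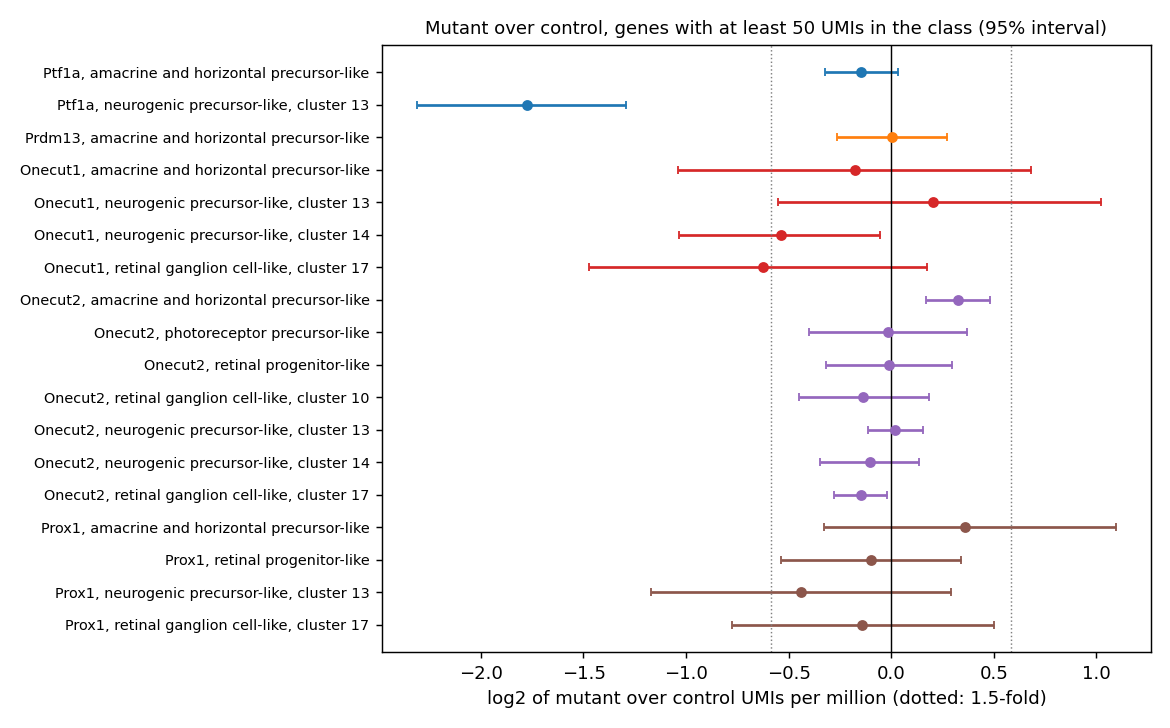
Log2 of mutant over control CPM, with 1 UMI added to each sum and 95% intervals, for every member with at least 50 UMIs in a class or cluster; dotted lines mark 1.5-fold. All values of *Onecut2* lie within 1.5-fold, and *Ptf1a* in cluster 13 lies at −1.77.

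In the other retinal classes most values also stayed within 1.5-fold. *Onecut2* passed the minimum in all 6 units, with log2 ratios of −0.02 in photoreceptor precursor-like cells (background 7.78% past 1.5-fold), −0.01 in retinal progenitor-like cells (2.4%) and −0.14 in the shallow ganglion cell-like cluster 10 (8.19%). Its ratios were 0.02 in cluster 13, −0.11 in cluster 14 (4.88%) and −0.15 in the deeper ganglion cell-like cluster 17 (4.42%). *Prox1* was at −0.10 in retinal progenitor-like cells, −0.44 in cluster 13 and −0.14 in cluster 17. Of the 4 members that passed in cluster 13, *Ptf1a* alone was past 1.5-fold, at 62.8 CPM in the control library and 18.1 CPM in the mutant (−1.77, −2.31 to −1.29), where 5.85% of 6924 genes were. That value rests on the few cells listed above, 8 of 137 control and 7 of 197 mutant cells with a UMI. *Onecut1* was past it in cluster 17, at 14.2 and 9.09 CPM, but its interval held 0 (−1.47 to 0.18), and in cluster 14 it was at 46.3 and 31.8 CPM (−0.54, −1.04 to −0.06).

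Genes with the most similar pattern over the 28 clusters of at least 20 control cells were listed for each member as a description. The clusters share libraries and depth, and *Lhx1* had too few UMIs for a ranking. For *Ptf1a* they were *Chodl* (Pearson r of 0.97 in the control library and 0.98 in the mutant), *Gm27217* (0.93 and 0.80) and *St18* (0.93 and 0.98). For *Prdm13* they were *Cdh22* (1.00 and 0.98), *Vtn* (0.99 and 0.98) and *Krt73* (0.98 and 0.99). *Onecut1* was most like *Srrm4* (0.93 and 0.94), *Gm20649* (0.93 and 0.92) and *Phf21b* (0.92 and 0.94), and *Onecut2* most like *Elavl3*, *Brsk2* and *Apba2* (0.98 each in the control). *Prox1* was nearest to *Mgat5b* (0.87 and 0.83), *Pcsk2* (0.87 and 0.89) and its antisense neighbour *Prox1os* (0.86 and 0.87). Among the members themselves, r in the control library was 0.92 for *Ptf1a* with *Prdm13* and 0.91 for *Onecut1* with *Onecut2*, and 0.54 for *Prdm13* with *Onecut1*.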

How the data were processed

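Single cell libraries were made on the 10X Genomics platform, and the authors deposited raw counts of UMIs for each gene in each called cell. Cell Ranger 7.1.0 and mm10 are named in the submitters' processing notes. The annotation, and whether introns or antisense reads were counted, are not given in the sources used here. Cells were left out when fewer than 200 genes were detected, when mitochondrial UMIs exceeded 15%, or when Scrublet in scanpy 1.11.5 (expected rate 5%) marked a doublet. Clustering in Seurat 5.3.0 used 2000 variable features without the 6 genes and *Onecut3*, integration, 30 components and resolution 0.8. A cluster was named from marker lists when at least 3 markers were raised over 2-fold with at least 10 UMIs, thresholds set after the clusters had been seen. The study's upper limit of 2000 UMIs per cell was run as an alternative only.

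Counts were summed per class and library and given as CPM with exact Poisson intervals, in scipy 1.17.1. Shares had Clopper-Pearson and ratios exact conditional binomial intervals, with 1 UMI added to each sum. Limits for 0 used 3 counts. Thinned shares left out cells under 3000 UMIs. The ratio was tested on simulated Poisson counts, the error that its interval assumes. Spread between cells, animals and libraries was not part of that test. The members and lists were chosen with earlier results of these data known. The genes named were the 6 members, the genes of these lists and the 3 genes most like each member by Pearson r of log2(CPM + 10) among genes with at least 50 UMIs. The result of 1 listed gene is not reported here. The alternatives are given in the closing section.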

Additional observations from a re-analysis of the deposited data

How the results depend on the processing

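No paired analysis was possible because each genotype had 1 library, and none could be left out. With classes from a rule per cell, only 2 control and 5 mutant cells remained in the class. There 1 member was past 1.5-fold (*Ptf1a*, −0.77), *Onecut2* turned to −0.33, and the thinned *Ptf1a* share was 100% in both libraries. Between 4 and 6 of the 6 genes peaked in the class, the 4 in the mutant library with a mitochondrial limit of 5% (35 cells in each library), and the upper limit of 2000 UMIs gave no such class. Under the other settings no member with enough UMIs was past 1.5-fold, also with a minimum of 10 UMIs per gene, where the background was 22.8%. At 2000 UMIs per cell the mutant *Ptf1a* share was 71.4%. *Prdm13* was found in 58.8% of control and 66.7% of mutant *Ptf1a* cells thinned to 2000 UMIs, 65.0% and 70.4% at 3000 and 72.1% and 77.2% at 5000. In all neuronal cells with 2 or more *Ptf1a* UMIs, an alternative chosen after seeing the data, it was in 66.7% and 79.1%. Thinning left 0 control and 3 mutant neuronal *Lhx1* cells. Of the 15 most similar pairs, 5 remained with log2(CPM + 1). Of 384 values under alternatives, 321 stayed within the counting interval or 1.5 times the count. These are not independent checks. The class held 52 control and 63 mutant cells also at resolutions of 0.4 and 1.6. It held 51 and 63 without doublet removal and also without integration.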

Other observations

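*Onecut3*, the third Onecut gene, was left out of the clustering features as well and had 42 control and 67 mutant UMIs in kept cells. In the amacrine and horizontal precursor-like class it had no UMI in 52 control cells, which allows up to 5.31 CPM, and 13 UMIs in 7 of 63 mutant cells (20.3 CPM, 10.8 to 34.8). All 7 mutant cells had *Prdm13* and *Onecut2*, and 6 had *Ptf1a*. In the control library its highest level was in photoreceptor precursor-like cells (17.8 CPM, 6 UMIs), where the mutant library had 1 UMI. Ganglion cell-like cells held 10.8 and 11.1 CPM.

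*Prox1*, which is also known from lymphatic endothelium and developing muscle, had 4 control and 13 mutant UMIs in endothelium-like cells, 11 of the mutant UMIs in 1 cell.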
